A study of Mus musculus with 8 samples.

Results

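The comparison set germ cells made in culture against germ cells taken from the embryo. Primordial germ cell-like cells of the mouse (mPGCLCs) were sorted on Day 6 from embryoid bodies of the SGET line, and primordial germ cells (mPGCs) were sorted at E12.5, each in 2 small RNA libraries, so 4 of the 8 libraries of the series were members. The other libraries were 2 of E13.5 mPGCs and 2 of E15.5 mPGCs. SGET is a single XY embryonic stem cell line of mixed B6CBA/129 background that carries a Stella-GFP and an Esg1-tdTomato reporter, and GFP-positive, tdTomato-negative cells were sorted. The mPGCs were male cells of GOF18 mice, which carry an EGFP gene driven by Oct4 regulatory sequence. For these mice the sample labels give the strain C57BL/6J and a sort on SSEA1 and CD61, whereas the methods give a mixed FVB/C57BL/6J background and a sort on EGFP. Each mPGC replicate pooled the genital ridges of embryos from its own litter. Cell line, strain, reporter, sorting marker and developmental stage all differed between the groups and cannot be told apart. Whether the SGET replicates came from separate cultures is not given in the sources used here, so p-values measure the spread between libraries only.

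A miRNA is a single strand of about the length of a small RNA read, cut by Drosha and Dicer from either arm (5p or 3p) of a hairpin, and its seed, bases 2 to 8, pairs with target mRNAs. Many miRNAs lie in clusters that are transcribed together. The imprinted Dlk1-Meg3 region of chromosome 12 holds a large miRNA cluster and a tandem array of C/D box snoRNAs, both expressed from the maternal copy. A cluster on the X chromosome is known for its expression in male germ cells. The Mir290 to Mir295 cluster is abundant in pluripotent cells and germ cells, and the Mir302 and Mir367 cluster is known from the epiblast and from pluripotent cells.

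Reads of 20 to 24 nt that matched a mouse miRNA hairpin exactly were counted per miRNA, as were all reads matching other annotated small RNAs, and levels are given as RPM, reads per 1000000 mapping reads. Hairpins that share most of their reads were joined and are written here as a group named by their first gene. The E12.5 libraries held 7447873 and 13614516 mapping reads and the SGET mPGCLC libraries 10209580 and 9526338, so 3 reads over both libraries of a group correspond to 0.142 and 0.152 RPM. These floors cover counting error only, because the random adapter ends were trimmed and PCR copies cannot be separated. A fold written as at least sets the mean of E12.5 against the SGET floor. It leaves out the spread between libraries and is no lower limit for single libraries. In all, 478 miRNA features and 456 other small RNA features had at least 1 read, and 325 and 277 of them passed the filter on low counts. A feature could pass this filter through the libraries of a single group. Group differences were tested with the quasi-likelihood test of edgeR on the counts of all 8 libraries, with Benjamini-Hochberg adjustment over all 602 tested features. The median log2 fold change of SGET mPGCLC over E12.5 mPGC was -0.32 over all tested features and 0.00 over miRNA features. Scaling changed this median, to -0.18 with TMM factors, to -0.05 in DESeq2 and to -0.50 with miRNA reads as library size.

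In SGET mPGCLCs 10 miRNA features were called higher, 3.08% of those tested, and 11 were called lower, 3.38%. All 10 higher ones belonged to the Dlk1-Meg3 cluster, and 7 of the 11 lower ones belonged to the X-linked germline cluster. The mature sequences below are those of the called miRNAs of the Dlk1-Meg3 cluster, taken from RefSeq on GRCm38, with the seed in capitals and the genome position and strand in parentheses. For each hairpin the arm with more reads in SGET mPGCLCs is shown, and for Mir379 and Mir411 also the other arm.
mmu-miR-379-5p (chr12:109709065-109709085, +): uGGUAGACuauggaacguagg
mmu-miR-379-3p (chr12:109709102-109709123, +): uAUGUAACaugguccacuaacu
mmu-miR-411-5p (chr12:109710190-109710210, +): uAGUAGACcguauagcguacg
mmu-miR-411-3p (chr12:109710225-109710246, +): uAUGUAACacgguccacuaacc
mmu-miR-485-3p (chr12:109734946-109734967, +): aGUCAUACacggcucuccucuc
mmu-miR-409-3p (chr12:109743204-109743225, +): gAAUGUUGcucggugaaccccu
mmu-miR-434-3p (chr12:109594565-109594586, +): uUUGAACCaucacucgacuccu
mmu-miR-382-5p (chr12:109733781-109733802, +): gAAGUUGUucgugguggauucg
mmu-miR-543-3p (chr12:109717304-109717325, +): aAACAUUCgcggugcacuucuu
mmu-miR-431-5p (chr12:109590459-109590479, +): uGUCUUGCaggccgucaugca
mmu-miR-323-3p (chr12:109712558-109712578, +): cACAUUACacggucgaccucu
The 3p strands of Mir379 and Mir411 share the seed AUGUAAC, and the 9 other strands each have a seed of their own. The RefSeq table held only the 5p strand of Mir487b, which had no read in SGET mPGCLCs, so its sequence is not shown. The lines that follow give the more abundant strand of each miRNA called lower, and both strands of Mir465c.
mmu-miR-743b-3p (chrX:66777266-66777287, -): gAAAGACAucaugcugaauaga
mmu-miR-202-3p (chr7:139957695-139957716, -): aGAGGUAUagcgcaugggaaga
mmu-miR-878-5p (chrX:66801554-66801575, -): uAUCUAGUuggaugucaagaca
mmu-miR-871-3p (chrX:66810438-66810460, -): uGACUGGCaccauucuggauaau
mmu-miR-881-3p (chrX:66801954-66801975, -): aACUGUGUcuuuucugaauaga
mmu-miR-883a-3p (chrX:66780768-66780789, -): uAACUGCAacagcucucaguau
mmu-miR-471-5p (chrX:66792634-66792655, -): uACGUAGUauagugcuuuucac
mmu-miR-465c-5p (chrX:66826004-66826025, -): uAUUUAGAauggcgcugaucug
mmu-miR-465c-3p (chrX:66825965-66825986, -): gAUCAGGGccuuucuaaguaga
mmu-miR-19a-3p (chr14:115044048-115044070, +): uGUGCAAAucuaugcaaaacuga
mmu-miR-760-3p (chr3:122293615-122293634, -): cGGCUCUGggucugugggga
mmu-miR-29a-3p (chr6:31062673-31062694, -): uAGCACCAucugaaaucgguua
No seed is shared among these strands, although 7 of the 11 features come from one cluster. Of the 90 named or called miRNA features, 80 had a mature sequence in the RefSeq table.

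**Figure D1:**
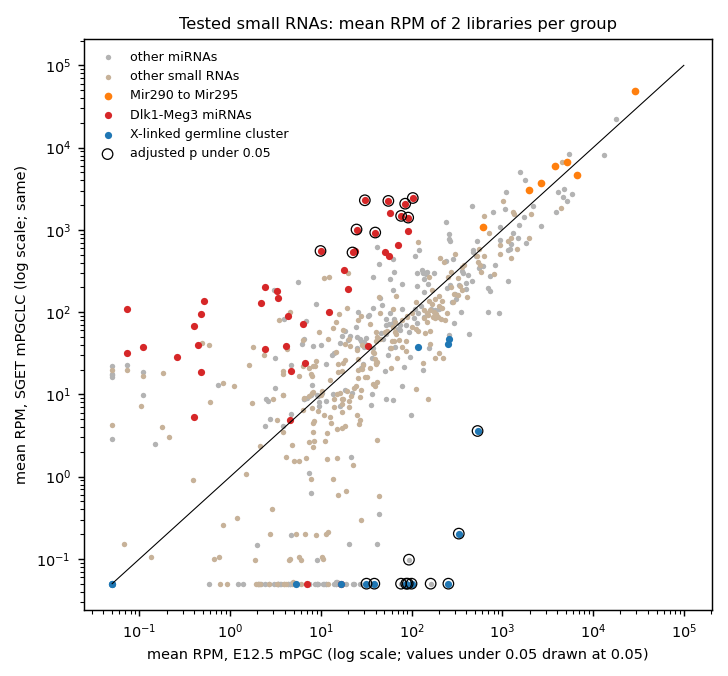
Mean RPM of each tested small RNA at E12.5 (horizontal axis) and in SGET mPGCLCs (vertical axis), both on log scales, with 2 libraries per group; each point is a feature, coloured by cluster, means under 0.05 RPM are drawn at 0.05, and circles mark an adjusted p under 0.05. Points of the Dlk1-Meg3 cluster lie above the line of equal level, with Mir665 and Mir1247 as exceptions, none of the X-linked cluster lies above it, and the Mir290 to Mir295 cluster lies near the line.

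The Dlk1-Meg3 cluster was the only list with members called higher in culture. Its members summed to 739 and 1370 RPM at E12.5 and to 17300 and 26800 RPM in SGET mPGCLCs, a ratio of means of 20.9 ± 10.9 (propagated SD, n = 2 against 2). At E13.5 the sums were 1070 and 1920 RPM and at E15.5 168 and 477 RPM, so both SGET libraries were above all 6 mPGC libraries. RPM of miRNAs at E15.5 are lowered throughout, because miRNA reads of 20 to 24 nt were only 2.22% and 1.89% of mapping reads there. At E12.5 they were 12.8% and 20.6%, and in SGET mPGCLCs 16% and 24.8%. The same limit holds for every comparison below with all 6 mPGC libraries. In bulk libraries a higher level per cell and a larger share of expressing cells cannot be told apart. Of 53 features of the list, 43 passed the filter and 10 were called higher, which is 23.3% against 3.08% of all tested miRNA features. The groups did not overlap and SGET was higher for 35 of the 43, against 25.2% of all tested miRNA features. At an unadjusted p under 0.05, 25 were higher and 1 was lower, against 11.7% of miRNA features in each direction. The median log2 fold change of the 43 was 4.56, with or without the features at 0 set to their floor, and 41 were above 0. The 2 below 0 were Mir665, with 5.77 and 8.15 RPM at E12.5, and Mir1247, with 9.94 and 23.5 RPM, and neither had a read in SGET mPGCLCs.

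Mir379, at the start of the distal group of hairpins, had 16.9 and 44.1 RPM at E12.5 and 1800 and 2780 RPM in SGET mPGCLCs, a log2 fold change of 6.23 ± 0.95 (SE, adjusted p = 7.1e-04). Mir485 had 40.4 and 70.4 RPM against 2090 and 2410 RPM (5.34 ± 0.85, adjusted p = 9.4e-04). Mir409 had 84.7 and 85.1 RPM against 1880 and 2270 RPM (4.61 ± 0.83, adjusted p = 0.00253). These 3 kept an adjusted p under 0.05 in the fits that left out any 1 of the 4 libraries, but Mir379 lost its call with miRNA reads of 22 nt alone (adjusted p = 0.376). The 5p strand of Mir379 has 21 nt, and its 16100 and 21603 exact reads in SGET mPGCLCs lie outside that length. Mir487b had 8.06 and 11.8 RPM against 538 and 570 RPM (5.8 ± 1.39, adjusted p = 0.0235), the lowest E12.5 level among the 10. Mir323 had 6.31 and 43.1 RPM at E12.5 against 1050 and 968 RPM (5.35 ± 1.23, adjusted p = 0.0205). In Mir323 the 2 E12.5 libraries lay further apart than the 2 SGET libraries. Mir434, whose gene overlaps the retrotransposon-derived gene Rtl1 on the opposite strand, was the most abundant of the cluster by reads, with 80.2 and 127 RPM against 1490 and 3390 RPM (4.56 ± 1.09, adjusted p = 0.0235). Mir431, also antisense to Rtl1, had 19.5 and 60 RPM against 780 and 1080 RPM (4.54 ± 1.06, adjusted p = 0.0212). Every SGET value of these miRNAs was above every mPGC value, those of E13.5 and E15.5 included. Mir382 had 62.4 and 90.9 RPM against 1170 and 1780 RPM (4.27 ± 1.03, adjusted p = 0.0235). Mir543 had 64.2 and 119 RPM against 1090 and 1720 RPM (3.94 ± 1.0, adjusted p = 0.0327), the smallest change of the 10. Mir411 had 17.7 and 27.0 RPM against 493 and 569 RPM (4.57 ± 1.15, adjusted p = 0.0316).

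The number of called members of the cluster depended on single libraries. It was 5 without E12.5 replicate 1 and 5 without SGET replicate 2, 9 without E12.5 replicate 2 and 10 without SGET replicate 1. Mir411 lost its call without any one of these libraries, with adjusted p of 0.48, 0.252, 0.14 and 0.185 in the fits without E12.5 replicates 1 and 2 and SGET replicates 1 and 2. Without E12.5 replicate 1, the call was also lost for Mir323 (adjusted p = 0.165), Mir382 (0.16), Mir431 (0.35), Mir487b (0.2) and Mir543 (0.251). Without E12.5 replicate 2 it was lost for Mir487b (0.0953) and Mir543 (0.0558). Without SGET replicate 2 it was lost for Mir382 (0.0709), Mir431 (0.127), Mir434 (0.0535) and Mir543 (0.127). Log2 fold changes of the 10 lay between 3.56 and 7.32 in these fits. Few distinct sequences stood behind the counts. The 10 features had between 2 and 21 distinct sequences per library; for Mir411 and Mir487b in E12.5 replicate 1 there were 2 each, and the commoner one made up 99.2% and 98.3% of the reads. Counted as distinct sequences instead of reads, the groups overlapped, with 58 and 247 sequences of the cluster at E12.5 against 174 and 162 in SGET mPGCLCs. These made up 5.74% and 13.9% of all miRNA sequences at E12.5 against 17.8% and 18% in SGET mPGCLCs, with E15.5 replicate 2 above both at 19.9%.

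**Figure D2:**
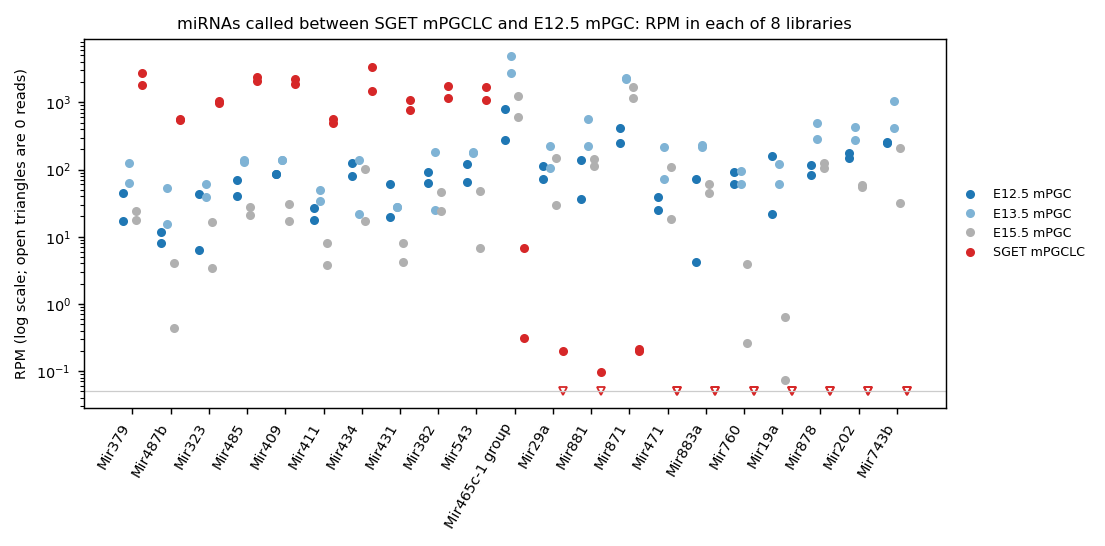
RPM on a log scale (vertical axis) of the 21 called miRNAs in each of the 8 libraries, ordered by log2 fold change, with colours for the groups and open triangles for 0 reads. For the 10 miRNAs at the left both SGET points lie above all 6 mPGC points, and for the 11 at the right both lie below them.

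All 10 miRNAs called higher were above the 6 mPGC libraries in both SGET libraries. They had been called for a difference from E12.5, and both E12.5 libraries are among the 6, so this count is no separate support. Of all tested miRNA features 73, or 22.5%, were above the 6, and 34 of these belonged to the Dlk1-Meg3 cluster. The uncalled tested members within the chromosome 12 span had log2 fold changes from -9.62 to 10.24. Mir541 had 65.7 and 50.9 RPM at E12.5 against 1110 and 2110 RPM (log2 fold change 4.79, adjusted p = 0.176), and Mir370 had 17.6 and 29.9 RPM against 513 and 608 RPM (4.56, adjusted p = 0.235). Mir127, which like Mir431 and Mir434 lies antisense to Rtl1, had 33.7 and 109 RPM against 432 and 868 RPM (3.19, adjusted p = 0.177). Mir667 had 0 and 2 reads at E12.5 against 65.0 and 155 RPM in SGET mPGCLCs (adjusted p = 0.0761). Libraries of 1 mPGC group could also differ widely, as for Mir433 with 0.166 and 111 RPM at E13.5.

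The other small RNAs tested in the same stretch of chromosome 12 lay on the same side. Between positions 109563692 and 109747960 of GRCm38, a span set by the miRNA hairpins and chosen after their values were seen, the annotation held 14 other small RNA features with a read, which lie between Mir370 and Mir379 on the same strand. Of these, 11 were tested, and in all 11 both SGET libraries were above both E12.5 libraries, against 14.4% of all tested other small RNA features. The untested ones, Gm24564, DQ267101 and Gm23736, had at most 0.63 RPM and their groups overlapped. The count was thus 11 of 14 features with a read. Gm25856 passed the filter through SGET mPGCLCs alone, with 0 and 0.147 RPM at E12.5 against 1.08 and 38.2 RPM. The median log2 fold change of the 11 was 3.52, against -0.61 over all tested other small RNA features. Together the 14 had 27.5 and 85.1 RPM at E12.5, 2.82 and 91.1 RPM at E13.5, 11.9 and 72.5 RPM at E15.5, and 436 and 562 RPM in SGET mPGCLCs. AF357341 had 0 and 9.18 RPM at E12.5 against 83.5 and 116 RPM (adjusted p = 0.439). Gm26922 had 0.806 and 6.02 RPM against 77.4 and 84.7 RPM (adjusted p = 0.417), and Gm23787 had 2.28 and 25.2 RPM against 63.4 and 66.6 RPM (adjusted p = 0.75). None of the 11 was called by edgeR, and they were counted over their fragments of 15 to 43 nt, which do not show the level of the whole snoRNA. These RNAs are near-copies of each other, so the split of reads among them is uncertain.

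**Figure D3:**
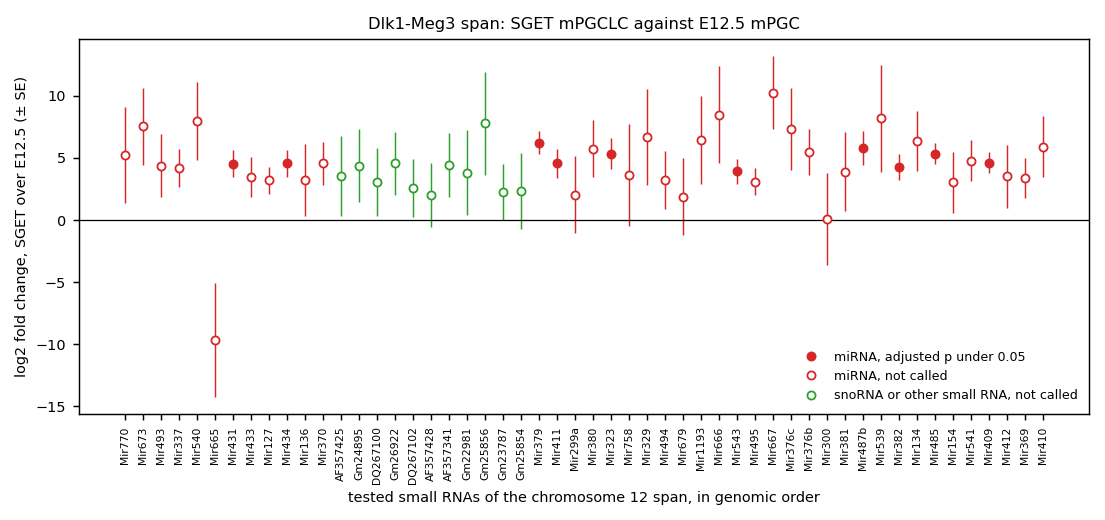
Log2 fold change of SGET mPGCLC over E12.5 mPGC with its SE (vertical axis) for each tested small RNA of the Dlk1-Meg3 span, in genomic order along the horizontal axis; red marks miRNAs, green other small RNAs and filled points an adjusted p under 0.05. The 11 green points between Mir370 and Mir379 are all above 0, and Mir665 is the one point below 0.

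The X-linked germline cluster was lower in culture. It lies on the minus strand of the X chromosome between 66776757 and 66839125. Its members summed to 1370 and 2680 RPM at E12.5, 9420 and 14800 RPM at E13.5, 4340 and 3410 RPM at E15.5, and 57.4 and 201 RPM in SGET mPGCLCs, so E12.5 was 15.7 times the SGET mean. Of 15 features 14 were tested and 7 were called lower, which is 50.0% against 3.38% of all tested miRNA features. In 11 of the 14 the groups did not overlap, against 25.8% of miRNA features, and none had a log2 fold change above 0. With the features at 0 set to their floor, the median over the 12 members with more than 3 reads in a group was -7.46. The cluster was represented by 36 and 64 distinct sequences at E12.5 and by 7 and 6 in SGET mPGCLCs.

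Mir871 had 247 and 416 RPM at E12.5 and 0.196 and 0.210 RPM in SGET mPGCLCs, which is 2 reads in each library (log2 fold change -10.61 ± 1.01, adjusted p = 5.7e-06). Mir743b had 247 and 260 RPM at E12.5 and no read in SGET mPGCLCs, at least 1670-fold lower by its E12.5 mean against the floor (adjusted p = 4.1e-04). This fold and the others written as at least do not cover the spread between libraries. Mir878 had 83.1 and 116 RPM and no read, at least 656-fold lower (adjusted p = 4.6e-04). The E12.5 libraries lay close to each other for Mir743b and further apart for Mir878 and Mir871. The Mir465c-1 group, 5 near-identical hairpins, had 274 and 792 RPM against 6.86 and 0.315 RPM (-7.21 ± 1.22, adjusted p = 0.00148). Mir881 had 36.9 and 138 RPM against 1 read in SGET replicate 1 and none in replicate 2, an E12.5 to SGET ratio of 2010 with a 95% counting interval of 361 to 79500 (adjusted p = 0.00112). Mir883a had 4.16 and 73.4 RPM against no read, at least 255-fold lower by its E12.5 mean (adjusted p = 0.0107). Its E12.5 libraries lay far apart, and in E12.5 replicate 1 its reads were all of 1 sequence. Mir471 had 38.8 and 24.8 RPM against no read, at least 209-fold lower (adjusted p = 0.0166). Its call was lost without SGET replicate 1 (adjusted p = 0.0627).

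Not every member was missing from culture. Mir470 had 182 and 336 RPM at E12.5 against 50.1 and 43.7 RPM (log2 fold change -2.46 ± 0.75, adjusted p = 0.118). Mir741 had 156 and 343 RPM against 0.0979 and 81.7 RPM (adjusted p = 0.417), and Mir743 had 81.0 and 152 RPM against 0 and 74.7 RPM (adjusted p = 0.687). These last 2 were present in SGET replicate 2 and at or near 0 in replicate 1, so the SGET libraries differed from each other for them. With only the 4 compared libraries in the fit, 4 of the 7 calls were made, and Mir881 (adjusted p = 0.0605), Mir471 (0.0766) and Mir883a (0.0973) were not.

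The other 4 miRNAs called lower came from separate loci. Mir202, which is known from the gonad and was listed here as a marker of gonadal somatic cells, had 149 and 174 RPM at E12.5, 272 and 430 RPM at E13.5, 55.7 and 58.3 RPM at E15.5 and no read in SGET mPGCLCs. By the E12.5 mean against the floor this was at least 1060-fold lower (adjusted p = 4.1e-04), and both arms of the hairpin were read at E12.5. Mir29a had 72.5 and 114 RPM against 2 reads and none, an E12.5 to SGET ratio of 982 with a 95% counting interval of 272 to 8100 (adjusted p = 0.00828). Mir760 had 61.2 and 91.7 RPM against no read, at least 503-fold lower (adjusted p = 0.0235), and lost its call without either SGET library (adjusted p = 0.0927 and 0.0709). Mir19a, of the Mir17-92 cluster, had 21.9 and 159 RPM against no read, at least 595-fold lower by its E12.5 mean (adjusted p = 0.0205). Its E12.5 libraries lay far apart. Its reads in E12.5 replicate 1 were of a single sequence, and without E12.5 replicate 2 or SGET replicate 1 its adjusted p was 0.0953 and 0.0627. With only the 4 compared libraries in the fit none of Mir29a (adjusted p = 0.0623), Mir760 (0.0585) and Mir19a (0.0605) was called. The paralogous Mir19b group was present in culture, with 196 and 401 RPM at E12.5 against 25.9 and 307 RPM. Mir202, Mir29a, Mir760 and Mir19a were each below all 6 mPGC libraries in SGET mPGCLCs, as were 6.77% of tested miRNA features. This is no separate support, because they were called as lower than E12.5 and had at most 2 reads in an SGET library.

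The miRNA clusters of pluripotent cells did not behave as one group. The Mir290 to Mir295 cluster had the most reads of the lists in both groups and summed to 38900 and 61000 RPM at E12.5 and to 57700 and 91100 RPM in SGET mPGCLCs, a ratio of 1.49 ± 0.664 (propagated SD). None of its 7 members was called, 6 had a log2 fold change above 0 and the median was 0.63. Mir292, its most read hairpin, had 23500 and 34900 RPM against 37000 and 61200 RPM (log2 fold change 0.75 ± 0.41, adjusted p = 0.411), and Mir290a had 3950 and 9230 RPM against 2870 and 6490 RPM (-0.49 ± 0.60, adjusted p = 0.821). Mir293 and Mir294 had log2 fold changes of 0.39 ± 0.52 and 0.68 ± 0.57 (adjusted p = 0.823 and 0.635). The Mir302 and Mir367 cluster summed to 71.6 and 109 RPM at E12.5 and to 901 and 1220 RPM in SGET mPGCLCs, a ratio of 11.7 ± 4.22. All 3 tested members were higher without overlap, against 25.2% of all tested miRNA features, and none was called. Mir302b had 30.5 and 51.9 RPM against 621 and 630 RPM (3.92 ± 1.06, adjusted p = 0.0522). Mir302d had 39.2 and 35.6 RPM against 162 and 375 RPM (2.84 ± 1.33, adjusted p = 0.342), Mir302a had 1.75 and 15.7 RPM against 118 and 136 RPM (adjusted p = 0.4), and Mir302c was not tested. With the 4 compared libraries alone Mir302b passed (adjusted p = 0.0194).

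Members of the 2 clusters share a seed, as their 3p strands show.
mmu-miR-294-3p (chr7:3220691-3220712, +): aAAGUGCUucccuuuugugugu
mmu-miR-302b-3p (chr3:127545275-127545297, +): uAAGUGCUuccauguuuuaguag
mmu-miR-302d-3p (chr3:127545665-127545687, +): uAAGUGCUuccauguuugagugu
Reads with the seed AAGUGCU made up 4.09% and 3.05% of all miRNA reads at E12.5 against 4.41% and 4.78% in SGET mPGCLCs, most of them from Mir294 and Mir295. The seed CUCAAAC, of the 5p strands of Mir292, Mir290a and Mir293 together, made up 17.9% and 17.2% at E12.5 against 21.3% and 22% in SGET mPGCLCs. Seed GUAAACA, of the Mir30 family, made up 6.75% and 8.58% against 3.08% and 3.18%. Seed GCAGCAU, of the Mir103-2 group and Mir107, made up 3.14% and 3.05% against 0.702% and 1.35%. Seed GGUAGAC, of Mir379 and, with fewer reads, Mir1193, made up 0.0133% and 0.0213% at E12.5 against 1.05% and 1.0% in SGET mPGCLCs.

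Further miRNA families differed less than their replicates allowed a call for. In the Mir200 family, which is known from epithelia, the sum was 613 and 780 RPM at E12.5 and 1720 and 3030 RPM in SGET mPGCLCs, with 0 of 5 called. Mir200c had 446 and 484 RPM against 1300 and 2560 RPM (log2 fold change 2.05 ± 0.77, adjusted p = 0.217), Mir200b had 0.75 ± 0.98, Mir429 had 1.46 ± 2.14 and Mir200a 1.31 ± 2.30. The Sfmbt2 intronic cluster, a large family of near-identical hairpins on chromosome 2 that is known from the placenta, summed to 2260 and 3240 RPM against 6660 and 9670 RPM. None of its 15 tested features was called, 9 were higher without overlap, against 25.2% of all tested miRNA features, and the median was 1.35. The Mir669c group had 1360 and 1800 RPM against 3930 and 6080 RPM (1.67 ± 0.58, adjusted p = 0.179). Mir467e, the Mir466c-1 group and the Mir467a-1 group had log2 fold changes of 1.77 ± 0.85, 1.45 ± 1.0 and 1.07 ± 1.10. Most reads of the family were counted in joined groups of hairpins, so their split among hairpins is uncertain.

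The cell cycle-linked Mir17-92 cluster and its paralogs were split. Mir92-1 was the second most read miRNA in both groups, with 13700 and 21800 RPM at E12.5 and 19500 and 25100 RPM in SGET mPGCLCs (0.33 ± 0.42, adjusted p = 0.821). Mir20a of the same cluster had 746 and 1540 RPM against 158 and 316 RPM (-2.27 ± 0.75, adjusted p = 0.168), and Mir17 had 484 and 965 RPM against 124 and 423 RPM (-1.41 ± 0.97). Of the 6 members Mir19a was the 1 called, and the median was -1.84. In the Mir106b-25 cluster Mir93 had -1.10 ± 0.66, Mir106b -1.16 ± 0.82 and Mir25 1.39 ± 0.73, with 0 of 3 called. In the Mir106a-363 cluster, with 0 of 6 called, Mir92-2 had 0.63 ± 0.51, Mir363 -0.20 ± 0.94, Mir20b -0.79 ± 0.91 and the Mir19b group -0.84 ± 1.09. The Mir19b group joins a hairpin of this cluster with one of the Mir17-92 cluster, so its value belongs to neither alone. Mir92-1 and Mir92-2 share the mature miR-92a-3p, and no read of exactly that sequence was counted for either.

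The let-7 family, known as a brake on the pluripotent state, summed to 3610 and 4490 RPM at E12.5 and 1860 and 4030 RPM in SGET mPGCLCs. None of its 9 features was called and the median was -0.49, against 0.00 over all tested miRNA features. It was -0.02 without SGET replicate 1, and -1.25 without SGET replicate 2, with 0 of 9 above 0. Mirlet7e, the Mirlet7a-1, Mirlet7f-2 and Mirlet7c-1 groups had log2 fold changes of -0.49 ± 0.65, -0.31 ± 0.68, -0.77 ± 0.91 and -0.66 ± 0.79. The Mir182, Mir183 and Mir96 cluster summed to 13700 and 21800 RPM against 11100 and 11200 RPM, with 0 of 3 called and all 3 lower without overlap, against 25.8% of all tested miRNA features. Mir183 had 10500 and 16200 RPM against 8220 and 8110 RPM (-0.70 ± 0.55), Mir182 had -0.50 ± 0.62 and Mir96 -1.78 ± 1.12. Of the Mir29 and Mir148 families 1 of 5 was called, Mir29a, while Mir148a had 473 and 910 RPM against 131 and 261 RPM (-1.82 ± 0.83, adjusted p = 0.34), and Mir148b and Mir152 had 0.43 ± 1.61 and 0.38 ± 1.58. Among the Mir10, Mir99, Mir100 and Mir125 families 0 of 7 were called, with Mir125a at -0.86 ± 0.54, Mir99b at -0.89 ± 0.75, the Mir125b-1 group at 1.32 ± 1.47 and Mir10b at -0.33 ± 1.03. Of 6 tested Hox-embedded miRNAs none was called, and the Mir196a-2 group had 3.36 and 7.86 RPM against 174 and 288 RPM (5.36 ± 2.11, adjusted p = 0.246), Mir10a 1.38 ± 1.60 and Mir196b 0.38 ± 2.78. Mir34b had 0 and 2 reads at E12.5 against 19 and 26.1 RPM, Mir34a had 59.3 and 46.3 RPM against 17.2 and 0.105 RPM and Mir34c 21.6 and 10.5 RPM against 14.5 and 0 RPM, with 0 of 3 called in the Mir34 and Mir449 families.

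**Figure D4:**
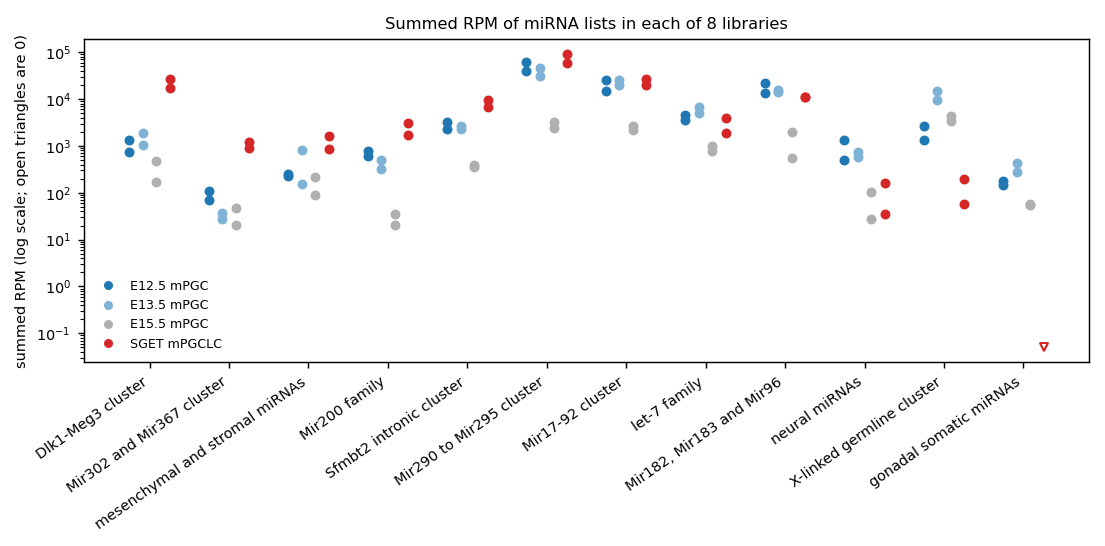
Summed RPM on a log scale (vertical axis) of 12 miRNA lists in each of the 8 libraries, with colours for the groups and an open triangle for 0. The Dlk1-Meg3 sums are 17300 and 26800 RPM in SGET mPGCLCs and at most 1920 RPM in mPGCs, and the X-linked sums are 57.4 and 201 RPM in SGET mPGCLCs and at least 1370 RPM in mPGCs.

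Of the markers of other cell types, some were read in both groups, some at E12.5 alone and some in neither. The mesenchymal and stromal list had 4 of 4 features above 0, none called, and summed to 223 and 249 RPM at E12.5, 157 and 838 RPM at E13.5 and 870 and 1660 RPM in SGET mPGCLCs. The Mir199a-2 group had 90.1 and 151 RPM against 492 and 641 RPM (log2 fold change 2.23 ± 1.0, adjusted p = 0.337), Mir143 2.15 ± 1.09, Mir214 0.269 and 5.8 RPM against 63.1 and 308 RPM (adjusted p = 0.173), and Mir145a 0 and 6.24 RPM against 0 and 54.8 RPM. This list and the Dlk1-Meg3 cluster were both higher in SGET mPGCLCs than at E12.5. In E13.5 replicate 2 the list had 838 RPM and the cluster 1920 RPM, against 870 and 17300 RPM in SGET replicate 1. The part of these markers in the difference of the cluster was not tested. The neural list was lower in culture, at 499 and 1340 RPM against 34.8 and 158 RPM, with 0 of 2 called. The Mir9-1 group had 484 and 1330 RPM against 34.8 and 158 RPM (-3.23 ± 1.0, adjusted p = 0.121), and the Mir124a-1 group had 14.5 and 8.23 RPM against no read. The gonadal somatic marker Mir202, described above, had 149 and 174 RPM at E12.5 and no read in SGET mPGCLCs. It was thus lower in this contrast, as the X-linked cluster was, and its part in the difference of the cluster was not tested. The endothelial Mir126a had 17.5 and 45.8 RPM against 69.4 and 27.3 RPM. The red blood cell list summed to 0 and 18.2 RPM against 0.196 and 0 RPM, with Mir144 and Mir451a at 0 in all 4 libraries. The leukocyte list summed to 19.9 and 23.0 RPM against 11.7 and 0 RPM, with Mir142 at 11.5 and 21.9 RPM against none, Mir150 at 8.32 and 1.10 RPM against 11.6 and 0 RPM, and Mir223 at 1 read in all. The muscle list summed to 10.1 and 15.8 RPM against 16.7 and 0 RPM, from the Mir1a-1 group and, in E12.5 replicate 2 alone, Mir206. The liver marker Mir122 was at 0 in all 4 libraries.

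The most read miRNAs were largely common to the groups. Of the 10 with the highest mean at E12.5 and the 10 in SGET mPGCLCs, 6 were on both lists, which were Mir292, Mir92-1, Mir183, Mir92-2, Mir293 and Mir290a. Mir93 (4520 and 7290 RPM against 1390 and 4110 RPM), the Mir103-2 group (4030 and 6390 RPM against 1140 and 3360 RPM), Mir30d (3220 and 6440 RPM against 2470 and 3770 RPM) and Mir125a (3550 and 5670 RPM against 2020 and 3070 RPM) were among the 10 at E12.5 only. Mir294, Mir295, Mir423 and the Mir669c group were among the 10 in SGET mPGCLCs only. Mir423 had 1340 and 2240 RPM against 3650 and 4350 RPM (1.16 ± 0.62, adjusted p = 0.4). None of these 14 was called.

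Classes of small RNA were compared by their shares of mapping reads. miRNA reads of 20 to 24 nt were 12.8% and 20.6% of mapping reads at E12.5 against 16% and 24.8% in SGET mPGCLCs, a ratio of 1.22 ± 0.549 (exact two-sided permutation test, p = 0.667). The smallest p that 2 libraries against 2 can give is 0.33. snoRNA reads were 2.38% and 4.74% against 2.89% and 3.04%, a ratio of 0.833 ± 0.393, and snRNA reads 0.286% and 0.410% against 0.290% and 0.275%, a ratio of 0.811 ± 0.205. Mitochondrial rRNA and tRNA reads were 0.113% and 0.297% against 0.277% and 0.266%, a ratio of 1.32 ± 0.843. Y, 7SK, 7SL and vault RNA reads were the one class of these 5 without overlap, at 0.221% and 0.201% against 0.324% and 0.283% (ratio 1.44 ± 0.167, exact permutation p = 0.333). Counted over distinct sequences instead of reads, the ratio of that class was 0.487, in the opposite direction. Some further classes also did not overlap. Hairpin reads of 25 nt or longer were 1.1% and 2.02% at E12.5 against 0.783% and 0.966%. Those of 15 to 19 nt were 0.246% and 0.25% against 0.263% and 0.329%. Reads of 5S and 5.8S rRNA were 0.123% and 0.134% against 0.111% and 0.0538%. Reads matching none of these annotations were 82.7% and 71.3% at E12.5 against 79.0% and 70.0% in SGET mPGCLCs. The annotation used has no nuclear tRNA genes or 45S rRNA, and reads of such RNAs fall in this last share.

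No small RNA outside the miRNAs was called by edgeR, 0.0% of 277, and at an unadjusted p under 0.05 there were 5 higher and 5 lower, 1.81% in each direction. DESeq2 called 9 higher and 5 lower. Of the C/D box snoRNAs, guides of ribose methylation, 0 of 75 were called, 26 had a log2 fold change above 0 and the median was -0.59, near the -0.61 of all other small RNAs. The groups did not overlap for 20 lower ones, against 28.2% of all other small RNAs, and for 5 higher ones, against 14.4%. The median was 0.16 without E12.5 replicate 2, with 44 of 76 above 0, and -1.01 without E12.5 replicate 1, with 15 of 77 above 0. Snord49a, Snord80, Snord100 and Snord96a, the most read, had 0.21 ± 0.82, -0.66 ± 0.83, -1.45 ± 0.80 and 0.08 ± 0.87. Chosen after their values were seen, Snord93 had 5.10 and 19.4 RPM against 209 and 326 RPM (adjusted p = 0.176), Snord14c had 83.5 and 154 RPM against 900 and 505 RPM (adjusted p = 0.229), and Snord78 had 40.8 and 262 RPM against 12.8 and 4.62 RPM (adjusted p = 0.235). Their 2 groups did not overlap. Of the H/ACA box snoRNAs, guides of pseudouridylation, 0 of 30 were called with a median of -0.70, and Snora64, Snora57, Snora68 and Snora75 had -0.16 ± 2.06, 1.70 ± 2.14, -0.26 ± 1.86 and -0.56 ± 2.36. Of the small Cajal body RNAs 0 of 7 were called, with Scarna2, Scarna6, Scarna17 and Scarna8 at 1.45 ± 2.71, -0.92 ± 2.76, -0.95 ± 3.15 and -0.83 ± 3.26.

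Among mitochondrial tRNAs 0 of 18 were called. Fragments of mt-Tp, the mitochondrial proline tRNA, had 17.1 and 22.6 RPM at E12.5 against 301 and 288 RPM (3.89 ± 1.79, adjusted p = 0.34). mt-Ts2 had 26.6 and 411 RPM against 19.7 and 36.1 RPM, and mt-Tv and mt-Tm had 0.06 ± 1.94 and 0.51 ± 2.12. The mitochondrial rRNAs mt-Rnr2 and mt-Rnr1 had 0.33 ± 0.66 and 1.13 ± 1.06. Of the spliceosomal snRNAs 0 of 11 were called, with Rnu1a1 at -0.42 ± 0.63, Rnu2-10 at 0.36 ± 0.74, Rnu5g at -1.0 ± 0.87 and Rnu12 at -1.35 ± 1.21. Of the Y RNAs, bound by the Ro protein, Rny1 had 1060 and 965 RPM against 2590 and 1870 RPM (1.14 ± 0.67, adjusted p = 0.439) and Rny3 had 1030 and 865 RPM against 444 and 856 RPM (-0.55 ± 0.71). Of the 8 RNAs of that list, none called, Vaultrc5 had 1.04 ± 1.93 and Rn7sk -1.49 ± 1.90.

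The form of the miRNAs was mostly shared. In 137 miRNA features with at least 100 reads in each of the 4 libraries, the most abundant sequence was the same in both groups for 105, began at the same base for 124 and came from the same arm for 129. The median absolute difference in the share of 3p reads was 1.25 percentage points. In 9 features the 3p share differed by 20 points or more without overlap, which is a description with no test. In Mir411 the 3p arm gave 99.2% and 64.0% of reads at E12.5 against 20.9% and 42.7% in SGET mPGCLCs. In Mir17 the 3p share was 3.85% and 4.60% against 28.3% and 36.8%, and in Mir106b, its paralog, 42.9% and 31.0% against 57.8% and 71.8%. The Mir365-1 group had 0.0% and 39.5% against 100% in both SGET libraries, and Mir450b had 65.3% and 23.7% against 100% in both. Mir322, Mir361 and Mir18b also had higher 3p shares in SGET mPGCLCs, and Mirlet7d had a lower one, with 53.3% and 35.8% against 28.2% and 0.0%. The fewest reads behind such a value were 101, for Mir450b. In SGET mPGCLCs these shares rested on few sequences, with 1 distinct sequence in each library for Mir450b, 1 and 2 for Mir18b and 2 in each library for the Mir365-1 group. The mean read length was shorter in both SGET libraries for 48 of the 137 features and longer in both for 18.

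**Figure D5:**
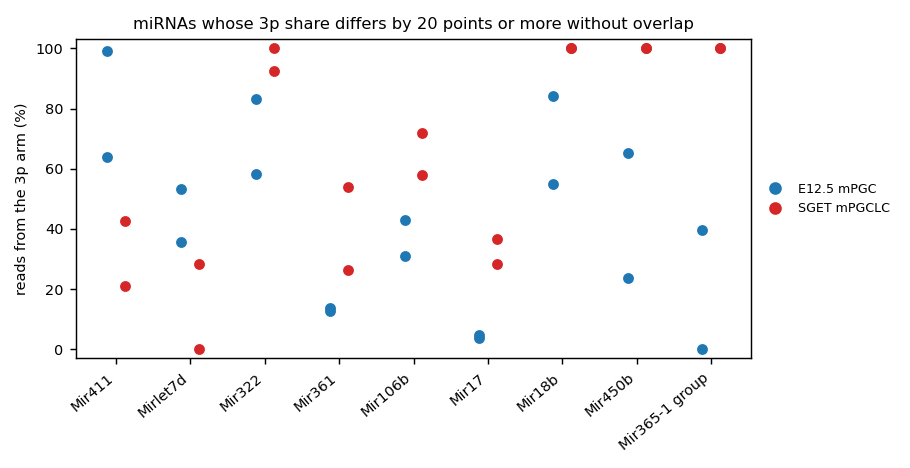
Percent of reads from the 3p arm (vertical axis) of 9 miRNA features in 2 libraries of E12.5 mPGCs and 2 of SGET mPGCLCs, chosen for a difference of 20 points or more without overlap. Mir411 and Mirlet7d are lower in SGET mPGCLCs and the other 7 are higher, with Mir18b, Mir450b and the Mir365-1 group at 100% in both SGET libraries.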

How the data were processed

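Small RNA was sequenced from 8 libraries, of which the 2 of SGET mPGCLCs and the 2 of E12.5 mPGCs were compared, as the sample labels group them. The members and gene lists were chosen with earlier results of these data known. The authors used cutadapt 3.2 to remove adapters and 4 random bases at each end, aligned to GRCm38 by STAR 2.5.3a, placed multimapping reads at 1 random position and deposited, for every sequence observed, its raw count. These deposited counts were not normalized and include PCR copies.

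Sequences of 20 to 24 nt were matched exactly, on the sense strand, to the miRNA hairpins of GENCODE M21 (GRCm38), and sequences of 15 to 43 nt to its other small RNAs. Genes that shared at least 50% of the reads of the smaller one were joined, and reads of several features, at most 0.101% of mapping reads, were left out. Counts passing filterByExpr were tested with edgeR 4.0.16 in R 4.3.3 (quasi-likelihood test, 4 groups, total mapping reads as library size, no block, adjusted p threshold 0.05, Benjamini-Hochberg). The SE of a log2 fold change was derived from its F statistic. Both this test and DESeq2 1.42.0, run as an alternative, were tested on simulated data. The replicates of the 2 groups correlated over log2 RPM at 0.949 (E12.5) and 0.881 (SGET). Total counts of 7447873 to 26552524 per library set the precision.

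Named are the 10 highest and 10 lowest called miRNAs whose groups do not overlap with a mean of at least 100 RPM in the higher group, called other small RNAs, the 10 most read miRNAs of each group and up to 4 members of each list. Called miRNAs below 100 RPM and other uncalled ones outside this rule were named after their values were seen. Mature sequences are from RefSeq. Read ends, positions of unannotated reads and the E14 and BG5 mPGCLCs were not analysed here. Alternatives covered scaling, test, filter, read length, joining, groups in the fit, replicate block and single libraries.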

Additional observations from a re-analysis of the deposited data

How the results depend on the processing

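The 21 called miRNAs were all called with TMM factors, in DESeq2, with miRNA reads as library size, with no filter and with miRNA reads of 18 to 26 nt. With reads of 22 nt 11 of the 21 were called, and Mir19a, Mir323, Mir379, Mir411, Mir431, Mir471, Mir487b, Mir543, Mir760 and Mir883a were not. That setting leaves out reads of the full mature miR-379-5p, miR-411-5p, miR-431-5p and miR-323-3p (21 nt), miR-760-3p (20 nt) and miR-19a-3p (23 nt). The mature miR-543-3p, miR-471-5p and miR-883a-3p have 22 nt. With only the 2 groups compared Mir19a, Mir29a, Mir471, Mir760, Mir881 and Mir883a were not called, and with each read counted in every gene it matches Mir411 was not. DESeq2 called more, with 37 miRNA features higher and 33 lower, 9 other small RNAs higher and 5 lower, and 24 members of the Dlk1-Meg3 cluster. With no filter 16 miRNA features were higher and 1 other small RNA was lower. With only the 2 groups compared, 16 miRNA features were higher and 6 lower, 1 other small RNA was higher, and 4 members of the X-linked cluster were lower. With miRNA reads as library size 17 miRNA features were lower. With miRNA reads of 22 nt 4 were higher, all 4 in the Dlk1-Meg3 cluster. With each read counted in every gene it matches 11 members of the X-linked cluster were lower. The cause was not tested. Leaving out 1 library gave 5 to 10 miRNA features higher and 10 to 14 lower, 0 to 1 other small RNAs lower and 5 to 10 called members of the Dlk1-Meg3 cluster, and the arm left with 1 library was assumed to vary like the other groups. The share of snRNA reads, SGET mPGCLC over E12.5 mPGC, was 1.09 over reads of 20 to 33 nt and 0.574 over distinct sequences, and the share of Y, 7SK, 7SL and vault RNA reads, SGET mPGCLC over E12.5 mPGC, was 0.487 over distinct sequences. Without 1 library the share of snoRNA reads ran from 0.625 to 1.25 and that of mitochondrial RNA reads from 0.914 to 2.41, both highest without E12.5 replicate 2.

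Deviations of same-numbered libraries of the 2 groups correlated at 0.0215. With the replicate block all 21 calls were made again, 11 miRNA features were higher and 11 lower. The share of miRNA reads of 20 to 24 nt did go with the replicate number in both groups. It was 12.8% and 20.6% in E12.5 replicates 1 and 2, and 16% and 24.8% in SGET replicates 1 and 2. At E13.5 it was 14.6% and 21.3%, but at E15.5 2.22% and 1.89%. The cause was not tested.

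Of 1537 values for 110 named features, 59 changed sign. Log2 fold changes that turned were, in DESeq2, Mir363 0.03, Snora64 0.06 and Snora68 0.02, with miRNA reads as library size, Mir196b -0.26, Snord96a -0.15 and mt-Tv -0.42, and under the replicate block, Mir196b -2.64, Mir200a -0.45, Scarna8 2.12, Snora75 0.13 and mt-Tv -0.92. With miRNA reads of 22 nt they were the Mir103-2 group 0.09, the Mir124a-1 group 0.00, Mir125a 0.91, Mir150 -8.98, Mir152 -10.40, Mir182 0.42, Mir196b -10.55, the Mir19b-2 group 3.98, Mir20b 1.06, Mir290a 0.19 and Mir30d 0.15. Over the 4 fits without 1 library, log2 fold changes that changed sign ran for Mir10a -1.27 to 3.38, for Mir10b -1.95 to 0.41, for Mir125b-1/Mir125b-2 -0.12 to 2.03, for Mir126a -0.21 to 1.47, for Mir145a -8.53 to 11.60, for Mir148b -0.23 to 0.94, for Mir150 -9.11 to 2.38, for Mir152 -0.92 to 1.42, for Mir196b -11.84 to 1.38, for Mir19b-2/Mir19b-1 -3.53 to 0.04, for Mir1a-1/Mir1a-2 -10.40 to 0.53, for Mir200a -7.52 to 2.31, for Mir290a -1.20 to 0.24, for Mir363 -0.50 to 0.18, for Mir486/Mir3107 -10.06 to 3.61, for Mirlet7e -1.25 to 0.01, for Scarna17 -10.32 to 0.71, for Scarna6 -5.81 to 0.05, for Scarna8 -5.27 to 3.52, for Snora64 -2.17 to 0.65, for Snora68 -0.59 to 0.16, for Snora75 -3.64 to 0.36, for Snord49a -0.26 to 0.92, for Snord96a -0.27 to 0.53, for Vaultrc5 -0.62 to 2.72, for mt-Rnr2 -0.13 to 1.02, for mt-Tm -1.31 to 2.87, for mt-Ts2 -3.88 to 0.07, for mt-Tv -6.98 to 1.05.

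With 2 libraries a group and a common dispersion of 1.617, the smallest called log2 fold change was 3.94 in size, and p-values over the classes of reads could not go below 0.33.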
